A study of Mus musculus with 11 samples.

Results

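A set of 10 genes that mark mural cells, the smooth muscle cells and pericytes wrapped around blood vessels, were followed across sorted mouse bone marrow stromal cells. These were chosen by name, by a rule that uses no measured level but was written with earlier results of these data known. The set was 10 of the 16576 genes listed in the deposited tables. Among them, 5 encode parts of the smooth muscle contractile apparatus (Tagln, Acta2, Myh11, Myl9 and Cnn1), and 5 are surface, signalling or channel genes used as pericyte markers (Cspg4, Rgs5, Mcam, Abcc9 and Kcnj8). All 10 were listed in each of the 3 tables.

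PolyA RNA was sequenced from 11 samples in 4 groups of bone marrow cells sorted by flow cytometry. The first group was 3 wild-type adult samples sorted as PDGFRa+CD51+. A group of 3 wild-type perinatal samples, called postnatal in their labels, was sorted as PDGFRa+Sca1+ and was Cre-negative by title. Another 2 wild-type perinatal samples, numbered 2 and 3, were sorted as PDGFRa+Sca1-. The last 3 were PDGFRa+Sca1+ samples with knockout of the insulin-like growth factor 1 receptor (IGF1R), Cre-positive by title and perinatal by the series design. The sources used here do not name the Cre driver, exact ages or strain, and Cre and the deletion cannot be told apart. The adult and perinatal groups differed in both age and sort gate, so these cannot be told apart either. Whether each sample was a separate animal is not said in the labels. The p-values therefore weigh group differences only against the spread among these samples, which may be technical.

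Smooth muscle cells contract when myosin heavy chain (Myh11), with its regulatory light chain (Myl9), pulls on smooth muscle actin (Acta2). Calponin (Cnn1) and transgelin (Tagln) are actin-binding proteins of the same filaments, and serum response factor (SRF), which binds a DNA element named the CArG box, drives many of these genes with cofactors of the myocardin family. Pericytes on capillaries carry the proteoglycan NG2 (Cspg4), the adhesion protein CD146 (Mcam), the G protein regulator Rgs5, and an ATP-sensitive potassium channel built from a pore subunit (Kcnj8) and a sulfonylurea receptor (Abcc9). In marrow, stromal cells around vessels can share several of these markers, and Tagln and Acta2 are also expressed by activated fibroblasts.

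In mm10 coordinates of GENCODE release M21, Tagln lay on chromosome 9 at 45929619 to 45936058 and Cnn1 on the same chromosome at 22099216 to 22109630. Acta2 lay on chromosome 19 at 34241090 to 34255590, Myl9 on chromosome 2 at 156775420 to 156781658 and Myh11 on chromosome 16 at 14194535 to 14291372. Among the pericyte genes, Cspg4 (56865033 to 56899870) and Mcam (44134469 to 44142727) were also on chromosome 9, and Rgs5 was on chromosome 1 at 169655501 to 169695813. Kcnj8 (142564837 to 142571614) and Abcc9 (142587862 to 142702315) were neighbours on the minus strand of chromosome 6, separated by 16247 bases. The channel's subunit genes therefore sat side by side in the genome, and their levels are given together below.

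The 250 bases before the RefSeq start site were available for 8 of the 10 genes. They are shown for Acta2 and Myl9, contractile genes that differed in opposite directions between adult and perinatal libraries, because both hold matches to the CArG box. Kcnj8 is also shown, which holds none and had 1 count over the adult libraries. Capitals mark matches on either strand to the CArG box with up to 1 G or C in its A/T core. The windows (GRCm38.p6, written 5′ to 3′ on the gene's strand) are chr19:34255374-34255623 on the minus strand for Acta2, chr2:156775214-156775463 on the plus strand for Myl9 and chr6:142571615-142571864 on the minus strand for Kcnj8.
Acta2: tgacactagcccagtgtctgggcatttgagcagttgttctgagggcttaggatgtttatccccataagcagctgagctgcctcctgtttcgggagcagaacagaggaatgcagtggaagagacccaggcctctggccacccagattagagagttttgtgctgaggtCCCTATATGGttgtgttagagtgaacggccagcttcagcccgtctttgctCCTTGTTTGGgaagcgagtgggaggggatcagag
Myl9: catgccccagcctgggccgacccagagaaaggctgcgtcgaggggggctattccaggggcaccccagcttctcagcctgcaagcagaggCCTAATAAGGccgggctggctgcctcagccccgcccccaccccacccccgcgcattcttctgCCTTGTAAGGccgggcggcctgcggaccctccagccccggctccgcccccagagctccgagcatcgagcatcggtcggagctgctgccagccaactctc
Kcnj8: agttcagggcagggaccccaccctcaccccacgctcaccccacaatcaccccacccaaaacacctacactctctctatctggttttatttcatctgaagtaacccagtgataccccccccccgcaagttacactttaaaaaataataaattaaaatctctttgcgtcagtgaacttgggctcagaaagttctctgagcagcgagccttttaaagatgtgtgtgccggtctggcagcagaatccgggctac

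Acta2 held 2 such matches, starting at -84 and -34 from the RefSeq start site, and Myl9 held 2, at -161 and -99. The windows of both genes reach into their GENCODE spans given above, as the RefSeq and GENCODE starts differ. Both matches of Acta2 lie within its GENCODE span. The match CCTAATAAGG of Myl9 was the 1 exact CArG box among the 8 windows, and the relaxed form was found in none of the windows of Cnn1, Cspg4, Rgs5, Mcam, Abcc9 and Kcnj8. Over all 32851 mouse windows of this length, 1.47% held an exact CArG box and 8.59% the relaxed form. The motif TTCCCAC, searched on both strands as a core bound by the Notch effector RBPJ, was in 5.42% of all windows and in none of the 8. A match of letters is a description of the window.

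Total counts ran from 13412316 to 23782217 per library, so that 3 counts, taken as the floor of a library, were worth 0.126 to 0.224 CPM, counts scaled to a library's total. Perinatal wild-type libraries 2 and 3 were shared by all 3 tables, and all 3 comparisons therefore rest in part on the same libraries. Library 1 of that group was a different library in the adult and knockout tables, with equal counts for 1.72% of genes. Ly6a, which encodes Sca1, went against the sort labels: it stood at 13.8 and 10.03 CPM in the libraries 2 and 3 labelled Sca1-positive and at 666 and 659 CPM in those labelled Sca1-negative. In the knockout table Ly6a was at 425, 13.8 and 10.04 CPM in controls 1, 2 and 3 and at 682 to 930 CPM in the knockouts. Knockout libraries held 5.22 ± 2.63 CPM of Igf1r and their controls 30.6 ± 1.06 CPM (SD, n = 3 each), lower in every knockout library, although its edgeR adjusted p was 0.0816 (DESeq2 adjusted p = 3.95e-09). In the adult libraries, 6 of 6 macrophage genes were called higher, beside 37.4% of all tested genes. Through adult libraries alone, 3 of these 6 reached the minimum of the filter on low counts in full, so their calls add no support. The summed level of the 6 was 19315 to 22095 CPM against 17.1 to 19.7 CPM in perinatal libraries. Pdgfra, the gene of the sorted receptor, was at 14.3 ± 0.869 CPM (SD, n = 3) in adult libraries against 264 ± 24.7 CPM (SD, n = 3). Itgav, the gene of CD51, which was in the adult gate alone, was higher in adult libraries, at 288 ± 17.1 against 49.5 ± 2.18 CPM (SD, n = 3 each).

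The comparison of adult with perinatal cells set groups that differed in age and sort gate, and in the macrophage and Pdgfra levels given above. Adult libraries held more RNA of Tagln, Acta2 and Cnn1, by 8.39-fold to 21.6-fold, and less of all 5 pericyte genes, of which Rgs5, Abcc9 and Kcnj8 were close to the floor. Myl9 was moderately lower in adult libraries and Myh11 did not pass the test. By edgeR's quasi-likelihood test at an adjusted p under 0.05, 3 of the 10 were called higher and 6 lower, beside 37.4% of all 13757 tested genes called higher and 39.7% called lower, so most genes of any kind differed between these groups. The calls of Cnn1, Rgs5, Abcc9 and Kcnj8 add no support, for a reason given below. Without overlap between libraries, 3 were higher and 5 lower, beside 45.3% and 35.7% of tested genes. In bulk samples, fewer cells of a type and less RNA per cell cannot be told apart.

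**Figure D1:**
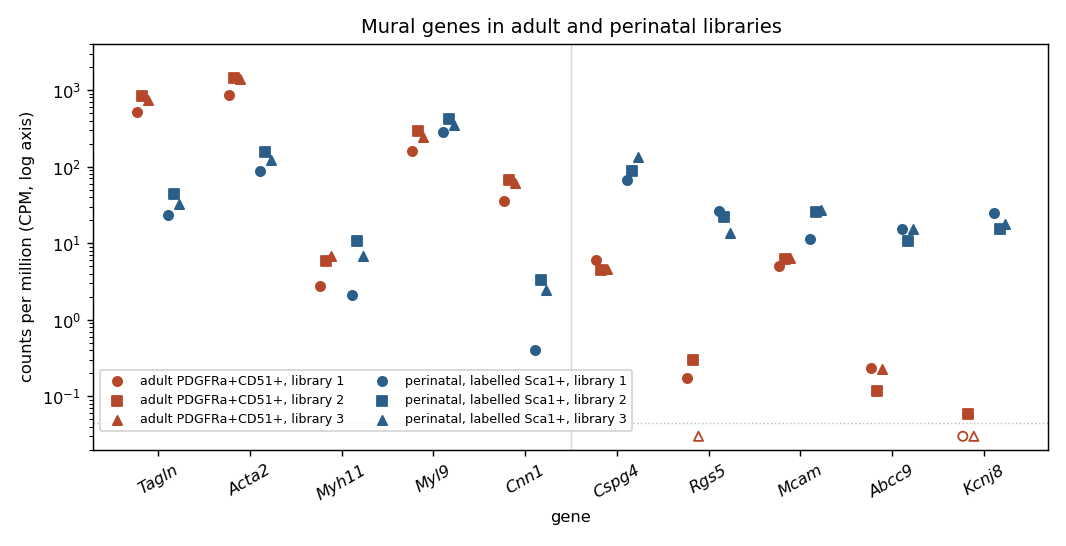
CPM (log axis) of each gene in the 3 adult libraries (red) and the 3 perinatal libraries of the same table (blue), contractile genes on the left and pericyte genes on the right, with open markers under the dotted line for libraries at 0. Tagln, Acta2 and Cnn1 are higher in every adult library, Myl9 and Myh11 overlap, and the 5 pericyte genes are lower in every adult library.

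Tagln, encoding transgelin, was at 515, 838 and 738 CPM in adult libraries 1, 2 and 3 and at 23.6, 44.3 and 32.9 CPM in the perinatal libraries. The lowest adult library lay far above the highest perinatal library, and the means were 697 ± 165 and 33.6 ± 10.3 CPM (SD, n = 3 each). The edgeR log2 fold change was 4.10 (SE 0.29, adjusted p = 1.19e-05), or 17.2-fold.

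Acta2, the smooth muscle actin gene, was at 858, 1453 and 1396 CPM in adult libraries and at 87.6, 155 and 123 CPM in perinatal ones. Here too the groups did not overlap, and within each group library 1 was the lowest. The log2 fold change was 3.07 (SE 0.29, edgeR adjusted p = 4.50e-05).

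Cnn1, encoding calponin, was scarce in perinatal cells, at 0.405, 3.35 and 2.42 CPM, and was at 35.1, 67.7 and 61.1 CPM in adult libraries. Every adult library was above every perinatal one. Its log2 fold change was 4.43 (SE 0.57, edgeR adjusted p = 2.21e-04), and perinatal library 1 rests on 6 counts.

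The myosin subunits did not follow these genes. Myl9, the regulatory light chain, was at 159, 288 and 241 CPM in adult libraries and at 280, 420 and 354 CPM in perinatal libraries. Adult library 2 exceeded perinatal library 1, so the ranges overlapped, yet the log2 fold change of -0.89 (SE 0.24) passed the edgeR test (adjusted p = 0.0105). With perinatal library 1 alone as the perinatal group, it no longer passed (-0.54, edgeR adjusted p = 0.146).

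Myh11, the smooth muscle myosin heavy chain and the most restricted marker of contractile smooth muscle among the 10, was low in both groups. It was at 2.72, 5.89 and 6.71 CPM in adult libraries and at 2.09, 10.8 and 6.85 CPM in perinatal ones, with overlapping ranges. The log2 fold change was -0.65 (SE 0.57, edgeR adjusted p = 0.329), and its sign depended on the perinatal libraries used: -1.06 without library 1 (edgeR adjusted p = 0.0274) and 1.02 with library 1 alone (adjusted p = 0.165). For 1 CPM of Myh11 the adult libraries held 189, 142 and 110 CPM of Tagln, and the perinatal libraries 11.3, 4.10 and 4.81.

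Per transcript length, in the authors' deposited TPM, the order of the contractile genes also differed. In adult cells Acta2 led at 1216 ± 311 TPM, followed by Tagln at 749 ± 158, Myl9 at 388 ± 102, Cnn1 at 38.3 ± 11.4 and Myh11 at 1.11 ± 0.468 (SD, n = 3). In perinatal cells Myl9 led at 492 ± 121 TPM, ahead of Acta2 at 97.9 ± 32.6 and Tagln at 30.1 ± 10.5, with Myh11 at 1.24 ± 0.843 and Cnn1 at 1.19 ± 0.887 TPM (SD, n = 3). The last pair changed order between libraries.

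All 5 pericyte genes were lower in adult cells. Cspg4, the NG2 proteoglycan gene, was at 5.96, 4.48 and 4.62 CPM in adult libraries against 67.5, 88.4 and 133 CPM in perinatal ones, without overlap. Its log2 fold change was -4.53 (SE 0.31, edgeR adjusted p = 9.14e-06).

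Mcam, encoding the adhesion protein CD146 that endothelial cells also carry, was at 5.04, 6.24 and 6.34 CPM in adult libraries against 11.5, 25.7 and 27.5 CPM. It fell least of the pericyte genes, with a log2 fold change of -2.15 (SE 0.34, edgeR adjusted p = 6.95e-04), and perinatal library 1 was nearest to the adult range. The summed level of 8 endothelial genes was 20.2 to 25.3 CPM in adult libraries and 53.5 to 128 CPM in perinatal libraries. Of these 8, 7 were called lower and 1 higher (Kdr, named after its values were seen), beside 39.7% and 37.4% of all tested genes. Through perinatal libraries alone, 5 of the 8 reached the minimum of the filter on low counts in full, so their calls add no support. Over the other 3, 2 were lower and 1 higher. The part of endothelial cells in the Mcam result was not tested.

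Rgs5 was at 26.7, 22.2 and 13.6 CPM in perinatal libraries and at 0.174, 0.295 and 0 CPM in adult ones, that is, 8 counts over the 3 adult libraries against 978. The pooled level was 125 times as high in perinatal libraries (exact 95% interval 63.2 to 290, counting error only), and the edgeR adjusted p was 1.49e-05. Adult Rgs5 was thus at the edge of detection at this depth.

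The channel genes were also close to 0 in adult cells. Abcc9 had 9 counts over the adult libraries and 632 over the perinatal libraries, a pooled ratio of 71.8 (exact 95% interval 37.6 to 158), with 0.232, 0.118 and 0.224 CPM in adult libraries against 15.2, 10.6 and 15.5 CPM. Kcnj8 had 1 count in the adult libraries, in library 2, and 369, 269 and 258 counts in perinatal libraries 1, 2 and 3. The pooled ratio for Kcnj8 was 916 with an exact 95% interval of 164 to 36231, which is wide because it rests on 1 count. The edgeR adjusted p was 3.61e-06 for Abcc9 and 3.35e-06 for Kcnj8.

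Rgs5, Abcc9 and Kcnj8 passed the filter on low counts only through the perinatal libraries, so their low adult level was part of how they entered the test and their calls add no support to it. Cnn1 reached the filter's minimum of 0.629 CPM in all adult libraries but in 2 of 3 perinatal ones, so it entered in full only through the group where it is high, and its call adds no support either. The other 6 genes reached the minimum in every library of both groups. Of these, Tagln and Acta2 were called higher, Myl9, Cspg4 and Mcam were called lower, and Myh11 was not called. Among the perinatal pericyte genes, TPM ran from Cspg4 at 16.7 ± 6.28 and Kcnj8 at 11.9 ± 2.14 through Mcam at 9.92 ± 4.51 and Rgs5 at 6.55 ± 1.61 to Abcc9 at 2.28 ± 0.462 (SD, n = 3). Cspg4 was above Mcam in each perinatal library, while the order of Kcnj8 against both changed between libraries. The sulfonylurea receptor gene was below its pore subunit gene in each perinatal library.

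**Figure D2:**
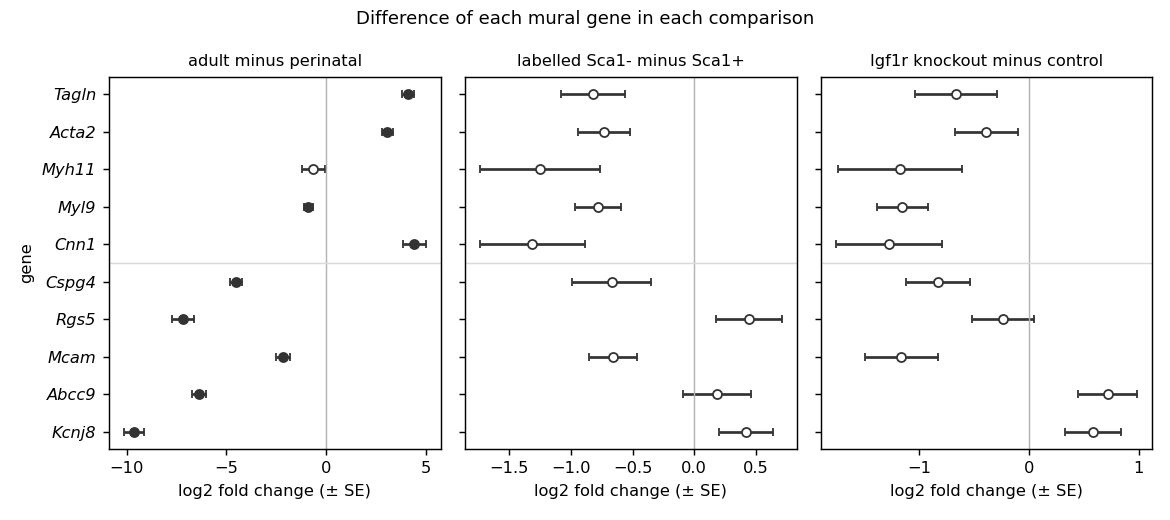
Log2 fold change with its standard error for each gene in the 3 comparisons, from edgeR, with filled points for genes called at an adjusted p under 0.05 and a separate x axis for each panel. Between adult and perinatal libraries, 3 genes are called higher and 6 lower, while no gene is called in either of the other comparisons. The calls of Cnn1, Rgs5, Abcc9 and Kcnj8 add no support, as these genes passed the filter in full only through the group where they are high.

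Other genes of the pathway were taken from lists written with earlier results of these data known. Some of their genes, as given with each list, reached the filter's minimum in full through 1 group alone, and the calls of such genes add no support to their direction. Of 19 other tested genes of the contractile apparatus, 11 were higher and 7 lower in adult cells, beside 37.4% and 39.7% of all tested genes. Their median log2 fold change was 1.06, beside -0.06 over all tested genes. Over the 15 that reached the minimum in all 6 libraries, 8 were higher and 6 lower. For such subsets, here and below, no matching share over all genes was taken. Actn1, an actin cross-linker, was at 568, 460 and 620 CPM in adult libraries against 21.6, 41.6 and 37.8 CPM (log2 fold change 3.76, SE 0.29, edgeR adjusted p = 1.59e-05). Pdlim7 (-1.70, SE 0.13) and the intermediate filament gene Des (-2.26, SE 0.20) were lower, with edgeR adjusted p of 1.45e-05 and 2.98e-05. Named after their values were seen, the enteric smooth muscle actin gene Actg2 rose by 3.25 (SE 0.33) and the actin nucleator gene Lmod1 by 5.92 (SE 0.65), with edgeR adjusted p of 6.25e-05 and 9.54e-05. Lmod1 reached the minimum in 1 of 3 perinatal libraries. Also named after their values were seen, the smooth muscle gene smoothelin (Smtn) and the myosin light chain gene Myl6 were lower (-1.12, SE 0.22 and -1.32, SE 0.21, with edgeR adjusted p of 0.00234 and 6.64e-04).

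Of 15 genes that control contraction, 3 were higher and 7 lower in adult cells, with a median log2 fold change of -0.27, beside the 37.4% and 39.7% of all genes. Over the 10 that reached the minimum in all 6 libraries, 3 were higher and 2 lower. The higher genes, named after their values were seen, were Prkg1 (2.73), Itpr1 (1.22) and Rock2 (1.14), and Rock2 no longer passed with perinatal library 1 alone (0.74, edgeR adjusted p = 0.0720). The 3 with the smallest adjusted p were Gucy1a1, a subunit of the nitric oxide receptor (0.0579, 0.0589 and 0.224 CPM in adult against 9.17, 16.2 and 15.8 CPM in perinatal libraries), the potassium channel gene Kcnma1 (-6.18, SE 0.45) and the endothelin receptor gene Ednra (-5.34, SE 0.47). Gucy1a1 and Kcnma1 reached the minimum in 0 of 3 adult libraries and Ednra in 2 of 3, so all entered the test in full only through perinatal libraries. These 3 genes, through which a mural cell responds to vessel signals, stayed at 1.94 CPM or below in every adult library.

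Of 11 tested genes of the SRF list, 4 were higher and 5 lower in adult cells, beside 37.4% and 39.7% of all tested genes. The list's median log2 fold change was -1.52. Klf5, Cnn3 and Klf4 were lower (-6.15, -2.56 and -3.17, with edgeR adjusted p of 7.89e-06, 3.14e-05 and 5.12e-05), and Klf5 reached the minimum in 1 of 3 adult libraries. Over the 8 genes at or above the minimum in all 6 libraries, 4 were higher and 3 lower. Named after their values were seen, Srf was at 68.2, 50.7 and 73.4 CPM in adult libraries and 13.8, 15.8 and 17.5 CPM in perinatal libraries (log2 fold change 1.76, SE 0.19), and Mrtfa, a cofactor of SRF, rose by 2.25 (SE 0.24), with edgeR adjusted p of 9.69e-05 and 8.11e-05. The other called genes were Mrtfb (1.09) and Elk1 (1.89), higher, and Foxf1 (-4.71) and Actb (-1.52), lower, with Foxf1 at the minimum in 0 of 3 adult libraries. Myocd, the smooth muscle cofactor, reached at most 0.648 CPM in adult libraries and 2.21 CPM in perinatal libraries.

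Of 20 other pericyte genes, 17 were lower and 1 higher in adult cells, beside 39.7% and 37.4% of all tested genes. Their median log2 fold change was -3.32. Over the 14 that reached the minimum in all 6 libraries, 11 were lower and 1 higher. Over all 20, counting the 6 genes that had no adult count at their floor-based bounds gave a median of -2.82. Steap4, at 94.8, 93.0 and 94.0 CPM in perinatal libraries, had no count in any adult library, which made it at least 420-fold lower against 3 counts per library. Olfml2b was at 11.8, 20.9 and 17.4 CPM against 580, 634 and 698 CPM, and the transcription factor gene Ebf1 at 16.03, 19.1 and 19.98 CPM against 253, 157 and 156 CPM. The higher gene was Anpep, a peptidase gene that myeloid cells also express (2.96, SE 0.38, edgeR adjusted p = 2.25e-04). The receptor genes Pdgfrb (0.34, SE 0.34, edgeR adjusted p = 0.393) and Notch3 (0.85, SE 0.45, adjusted p = 0.118), named after their values were seen, did not pass the test. Pdgfrb was at 143, 109 and 176 CPM in adult libraries and 49.8, 108 and 124 CPM in perinatal libraries, with perinatal library 1 the lowest, and with that library alone as the perinatal group both passed (1.27 and 2.11, edgeR adjusted p = 0.0118 and 0.00850). Notch3 also passed without perinatal library 3 (1.26, edgeR adjusted p = 0.0433).

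Ligands and receptors that recruit mural cells were divided, with 6 of 12 higher and 6 lower, beside 37.4% and 39.7% of all tested genes. Over the 9 that reached the minimum in all 6 libraries, 4 were higher and 5 lower. Tgfb1 was at 311, 208 and 335 CPM in adult against 0.405, 1.10 and 0.899 CPM in perinatal libraries, and Pdgfb at 68.3, 54.1 and 78.0 CPM against 0.674, 2.08 and 0.761 CPM. Angpt2 was lower (-5.39, SE 0.28, edgeR adjusted p = 3.12e-06). Tgfb1 reached the minimum in 2 of 3 perinatal libraries and Angpt2 in 2 of 3 adult ones. Macrophages also express Tgfb1 and Pdgfb, and Lyz2 and Adgre1, macrophage genes, rose by 9.76 and 11.66 on the log2 scale in the same adult libraries. Adgre1 reached the minimum in 0 of 3 perinatal libraries (mean 0.237 CPM), so the size of its rise rests on a level near the floor. The part of macrophage RNA in the levels of the contractile and pericyte genes, Tagln, Acta2 and Cnn1 included, and of the genes of these lists was not tested.

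**Figure D3:**
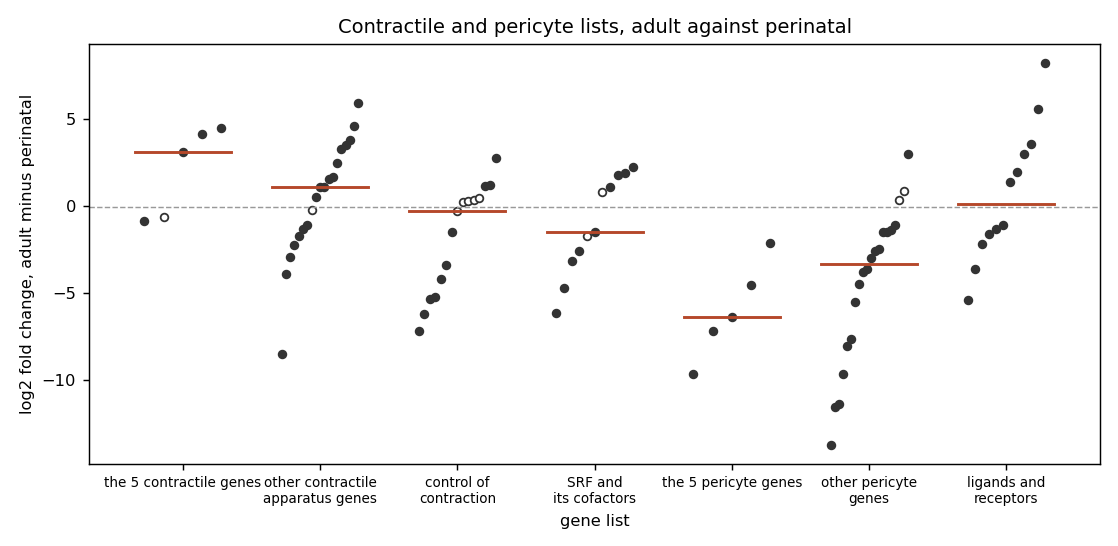
Log2 fold change, adult minus perinatal, of every tested gene in 7 lists, with filled points for genes called by edgeR, open points for the others, a bar at the list's median and a dashed line at the median of all tested genes. The 5 pericyte genes and most of the 20 other pericyte genes lie below the line, while the contractile lists span both sides.

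Markers of other cells also differed in this comparison. All 8 skeletal muscle genes were lower in adult libraries, at 11.3 to 16.5 CPM summed against 432 to 603 CPM, as were 3 of 3 tested Schwann cell genes. Over all tested genes, 39.7% were called lower. In these lists, 7 skeletal muscle genes and 1 Schwann cell gene reached the filter's minimum in full only through perinatal libraries, so their calls add no support. The cartilage genes summed to 49.1 to 83.9 CPM in adult libraries and to 362 CPM in perinatal library 1, against 4874 to 5950 CPM in libraries 2 and 3. The 5 pericyte genes summed to 11.2 to 11.4 CPM in adult libraries and to 146 to 207 CPM in perinatal libraries, and the 5 contractile genes to 1570 to 2652 against 393 to 633 CPM. Their relation to the cartilage difference between perinatal libraries was not tested.

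The Sca1 comparison asked how perinatal PDGFRa+ cells differ by their Sca1 label, with 2 libraries in each group and Ly6a against the labels. All 5 contractile genes had lower values in both libraries labelled Sca1-negative, by 1.66-fold to 2.48-fold, while Rgs5, Abcc9 and Kcnj8 had log2 fold changes above 0. No gene of the 10 passed the edgeR test, beside 1.63% of 13529 genes called higher and 2.79% called lower. At an unadjusted edgeR p under 0.05, 0 were higher and 6 lower (background 8.65% and 10.3%), and DESeq2 called 0 higher and 2 lower, Acta2 and Myl9 (background 3.03% and 4.2%).

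**Figure D4:**
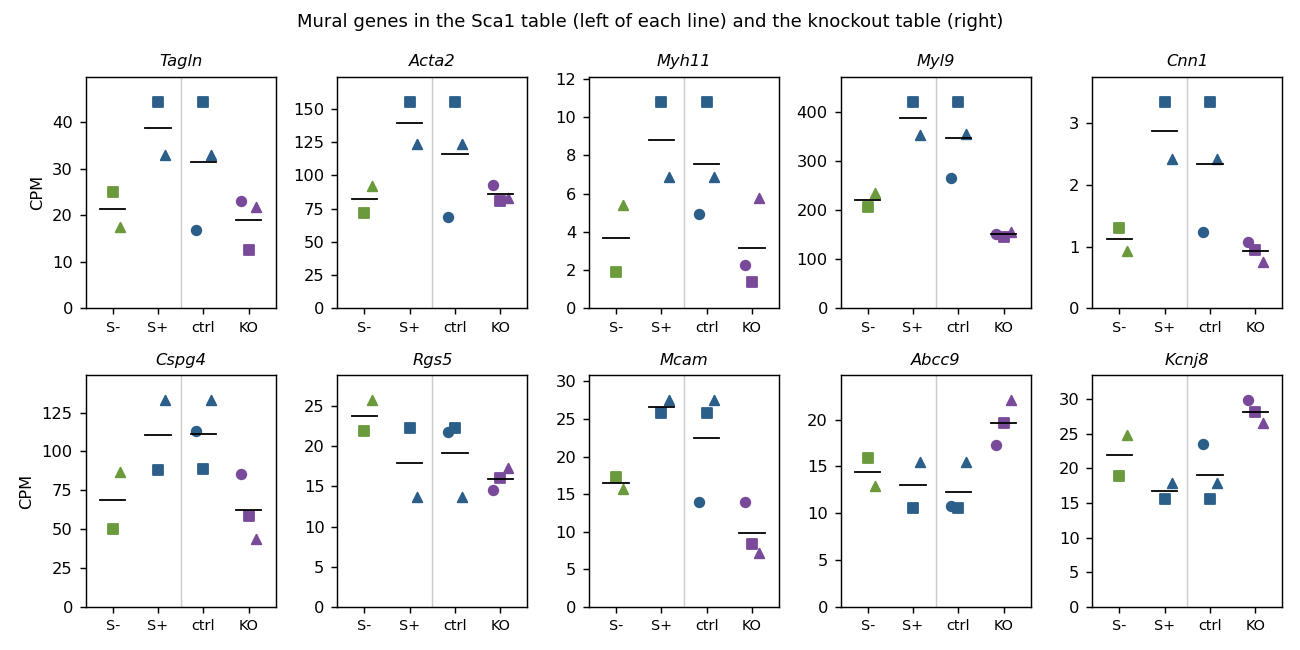
CPM of each gene in every library of the Sca1 table (left of the line, S- and S+ as labelled) and the knockout table (right, ctrl and KO for control and Igf1r knockout), with circles, squares and triangles for libraries 1, 2 and 3 and a bar at the group mean. S+ and ctrl share libraries 2 and 3. Myl9 is lower in both libraries labelled Sca1-negative and in all 3 knockout libraries than in any library they are compared with.

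Tagln was at 25.1 and 17.4 CPM in libraries labelled Sca1-negative and at 44.3 and 32.9 CPM in those labelled Sca1-positive (log2 fold change -0.82, SE 0.26, edgeR adjusted p = 0.152). Acta2 was at 71.4 and 92.2 CPM against 155 and 123 CPM (-0.73, SE 0.21, adjusted p = 0.121). Myl9, at 206 and 235 CPM against 420 and 354 CPM, came nearest to the threshold (-0.78, SE 0.19, edgeR adjusted p = 0.0792). None of these ranges overlapped, and in the authors' deposited table Acta2 and Myl9 had adjusted p of 0.0461 and 0.0106.

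Cnn1 was at 1.31 and 0.940 CPM against 3.35 and 2.42 CPM, and Myh11 at 1.90 and 5.42 CPM against 10.8 and 6.85 CPM, both without overlap. Their edgeR adjusted p were 0.160 and 0.232. Low counts lie behind both genes, and the libraries labelled Sca1-negative differed more from each other for Myh11 than for Cnn1.

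The pericyte genes split. Cspg4 was at 50.2 and 86.9 CPM against 88.4 and 133 CPM and Mcam at 17.2 and 15.6 CPM against 25.8 and 27.5 CPM, lower without overlap, with edgeR adjusted p of 0.328 and 0.129. Kcnj8 was at 18.9 and 24.9 CPM against 15.5 and 17.9 CPM, and it was the 1 gene higher in both libraries. Rgs5 (21.9 and 25.7 against 22.2 and 13.6 CPM) and Abcc9 (15.9 and 12.9 against 10.6 and 15.5 CPM) overlapped. Over the 10 genes, 1 was higher and 7 were lower without overlap, beside 22.2% and 27.6% of all tested genes. All the 5 contractile genes and none of the channel genes were on the lower side.

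Of 17 other contractile genes tested, 2 were lower and 0 higher, beside 2.79% and 1.63% of all tested genes. Mylk, the kinase of the myosin light chain, was at 14.2 and 15.5 CPM against 42.8 and 36.3 CPM (edgeR adjusted p = 0.0136). The integrin gene Itga8 was at 4.92 and 3.98 CPM against 16.1 and 14.9 CPM (edgeR adjusted p = 0.0148). At an unadjusted edgeR p under 0.05 the list held 1 higher and 6 lower, beside 8.65% and 10.3% of all genes. DESeq2 called 0 higher and 4 lower, beside 3.03% and 4.2%. Of the contraction control list, Ppp1r12b rose by 1.44 (SE 0.21) and Gucy1a1 fell by 1.11 (SE 0.22), with edgeR adjusted p of 0.0184 and 0.0420. Ppp1r12b lost its call without library 2 labelled Sca1-positive (adjusted p = 0.110) and Gucy1a1 without library 2 (0.226) or library 3 (0.235). Cnn2, of the SRF list, was lower (-1.55, SE 0.22, edgeR adjusted p = 0.0169).

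Of the 20 other pericyte genes, 1 was higher and 4 lower in libraries labelled Sca1-negative, beside 1.63% and 2.79% of all tested genes. Their median log2 fold change was -0.23. Cox4i2 was at 6.75 and 7.37 CPM against 23.2 CPM in both libraries labelled Sca1-positive (edgeR adjusted p = 0.00921), and Vtn at 7.15 and 10.6 CPM against 23.5 and 31.8 CPM (adjusted p = 0.03002). Anpep was higher, at 125 and 162 CPM against 49.4 and 54.5 CPM (edgeR adjusted p = 0.0136). The other lower genes, named after their values were seen, were Tbx2 (-1.76, SE 0.31) and Heyl (-1.32, SE 0.23), and Heyl was lost without library 3 labelled Sca1-positive (edgeR adjusted p = 0.128). Anpep passed no longer without library 2 labelled Sca1-positive (adjusted p = 0.0557), nor Vtn without library 3 (0.0549). The sphingosine phosphate receptor genes S1pr1 (-1.67, SE 0.21) and S1pr3 (-1.19, SE 0.22), 2 of 12 genes of the recruitment list, were lower, with edgeR adjusted p of 0.00998 and 0.0345, the latter lost without library 3 (0.231).

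Lineage markers moved with the same libraries. All 5 cartilage genes and all 5 osteoblast genes were lower in libraries labelled Sca1-negative, and the cartilage genes summed to 284 to 376 CPM against 4876 to 5952 CPM, with Col2a1 at 48.9 and 117 CPM against 3641 and 4647 CPM. Endothelial genes, 0 of 8 called by edgeR or DESeq2 with 0 higher and 1 lower at an unadjusted p under 0.05, summed to 53.9 to 83.2 CPM against 80.0 to 128 CPM. Fibroblast progenitor genes, a list that holds Ly6a, summed to 1913 to 2569 CPM against 433 to 543 CPM, with 4 of 5 called higher. Over all tested genes, edgeR called 1.63% higher and 2.79% lower. Skeletal muscle genes summed to 624 to 737 CPM against 432 to 446 CPM, with 1 of 8 called by edgeR, as lower (Myh3). At an unadjusted edgeR p under 0.05, 5 of the 8 were higher and 2 lower, beside 8.65% and 10.3% of all tested genes. DESeq2 called 3 higher and 2 lower, beside 3.03% and 4.2%. Myh3 and the osteoblast gene Sp7 reached the filter's minimum in full only through libraries labelled Sca1-positive, so their calls add no support. The part of these cells in the contractile values was not tested.

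The knockout comparison addressed the loss of IGF1R in perinatal stromal cells. In it, 8 of the 10 genes had a log2 fold change below 0 and the channel genes Abcc9 and Kcnj8 one above 0. No gene of the 10 passed the edgeR test, in a comparison where 0% of 13590 genes were called higher and 0.0368% lower. At an unadjusted edgeR p under 0.05, 1 was higher (Abcc9) and 4 were lower (Myl9, Mcam, Cspg4 and Cnn1), beside 12.1% and 9.68% of all genes. DESeq2 called 0 higher and 2 lower, Myl9 and Mcam, beside 3.29% and 3.68% of all genes.

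Myl9 was the contractile gene with the tightest separation, at 151, 146 and 156 CPM in knockouts 1, 2 and 3 and 265, 420 and 354 CPM in controls. All 3 knockout libraries lay below all 3 controls, and the log2 fold change was -1.15 (SE 0.23, edgeR adjusted p = 0.176, DESeq2 adjusted p = 5.89e-04). In the authors' deposited table its adjusted p was 0.00170. It passed the edgeR test without knockout 1 (adjusted p = 0.0289) or without control 1 (0.0456).

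Control 1 stood apart for several contractile genes. Tagln was at 16.8, 44.3 and 33.0 CPM in controls 1, 2 and 3 and at 23.0, 12.4 and 21.7 CPM in knockouts. Acta2 was at 68.7, 155 and 123 CPM in controls and at 92.9, 81.0 and 82.8 CPM in knockouts. For both genes control 1 fell within or below the knockout range, and the log2 fold changes were -0.66 (SE 0.37) and -0.39 (SE 0.29), with edgeR adjusted p of 0.302 and 0.409. With control 1 as the only control they turned to 0.12 and 0.25.

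Cnn1 was at 1.08, 0.949 and 0.757 CPM in knockouts against 1.23, 3.35 and 2.42 CPM, lower without overlap (edgeR adjusted p = 0.198). Myh11 was at 2.30, 1.37 and 5.76 CPM against 4.93, 10.8 and 6.85 CPM, with knockout 3 above control 1 (adjusted p = 0.255).

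Among pericyte genes, Mcam was at 13.9, 8.33 and 7.19 CPM in knockouts against 14.0, 25.8 and 27.5 CPM in controls, where knockout 1 and control 1 all but met. Its log2 fold change was -1.16 (SE 0.33, edgeR adjusted p = 0.177, DESeq2 adjusted p = 0.0329), and in the authors' deposited table the adjusted p was 0.0356. Cspg4 was at 85.7, 58.7 and 43.5 CPM against 113, 88.4 and 133 CPM, lower without overlap (-0.82, SE 0.29, edgeR adjusted p = 0.185). Without knockout 1, Mcam and Cspg4 passed the edgeR test (adjusted p = 0.0276 and 0.0370), in a fit that called 1532 genes higher and 1471 lower of 13952. Neither gene passed when any other single library was left out. Rgs5 overlapped, at 14.6, 16.1 and 17.2 CPM against 21.7, 22.2 and 13.6 CPM (edgeR adjusted p = 0.599).

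The channel genes lay on the other side. Abcc9 was at 17.3, 19.6 and 22.1 CPM in knockouts against 10.8, 10.6 and 15.5 CPM in controls, and Kcnj8 at 29.8, 28.1 and 26.5 CPM against 23.6, 15.5 and 17.9 CPM. Both were higher in every knockout library than in any control, with log2 fold changes of 0.72 (SE 0.27) and 0.58 (SE 0.26) and edgeR adjusted p of 0.196 and 0.232. Without overlap, 2 of the 10 genes were higher and 4 lower, beside 15.4% and 12.6% of all tested genes.

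The other lists held no edgeR call in the knockout. Of 18 other contractile genes, 0 higher and 4 lower had an unadjusted edgeR p under 0.05, beside 12.1% and 9.68% of all genes. DESeq2 called 0 of them higher and 1 lower, beside 3.29% and 3.68% of all genes. For the 20 pericyte genes these counts were 3 and 10, and 1 and 6. Of 15 control genes, 4 higher and 4 lower had an unadjusted p under 0.05, and DESeq2 called 3 and 2. The most abundant genes included Myl6 (0.53, SE 0.25) and Flna (-0.20, SE 0.26), Rhoa (1.21, SE 0.38) and Rock2 (1.32, SE 0.33), and Postn (0.93, SE 0.30) and Olfml2b (-0.40, SE 0.23). In the SRF list Actb (0.92, SE 0.38) and Cnn3 (-0.47, SE 0.28) had values of both signs, as had Tgfbr2 (0.22, SE 0.24) and Tgfb3 (-0.84, SE 0.44) among the recruitment genes. By median log2 fold change, the contractile list stood at -0.39 and the pericyte list at -0.96, beside -0.03 over all tested genes.

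The libraries behind these values differed in other cell markers. Cartilage genes summed to 206 to 387 CPM in knockouts and to 415 CPM in control 1, against 4877 and 5955 CPM in controls 2 and 3, which also had the low Ly6a and the highest Tagln, Acta2, Cnn1, Myl9, Myh11 and Mcam of the 6 libraries. Endothelial genes summed to 31.5 to 99.1 CPM in knockouts and 57.1 to 128 CPM in controls. Fibroblast progenitor genes summed to 1771 to 2312 CPM in knockouts and 2159 CPM in control 1, against 433 and 544 CPM in controls 2 and 3. Skeletal muscle genes summed to 575 to 681 CPM in knockouts and 755 CPM in control 1, against 432 and 446 CPM in controls 2 and 3. Their part in the lower Myl9, Mcam, Cspg4 and Cnn1 values was not tested.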

How the data were processed

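The 3 tables deposited by the authors hold whole-number counts per gene for each library, per the file headers. The submitters' processing notes name Trimmomatic 0.32, the build mm10 and DESeq2. For the aligner, the counter, the annotation and strand, nothing is given in the sources used here. The authors' deposited TPM, in the tables for age and Sca1, served only to compare genes per length. Columns headed TPM in the knockout table hold values on a log2 scale, as deposited, and were not used. The log2 fold changes and adjusted p-values of the authors' own comparison were deposited in each table, with the sign turned here in the adult and Sca1 tables to match the comparisons. All 16507, 14267 and 14910 gene identifiers matched GENCODE M21. Promoter windows are from RefSeq (GRCm38.p6).

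CPM is a library's count over its total. Each table was fitted alone in R 4.3.3 with edgeR 4.0.16 (TMM, filterByExpr with a minimum count of 10, robust glmQLFit, glmQLFTest, the group as the only term), and p-values were adjusted by Benjamini-Hochberg over all genes tested. Calls used an adjusted p under 0.05. SE is the log2 fold change over the square root of F. The procedure was tested on simulated data. Alternatives were DESeq2 1.42.0, other scaling factors, no filter, the replicate number as a block, and libraries left out. Intervals and floors cover counting error only.

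The 10 genes, the lists and the naming rule were chosen with earlier results of these data known. The rule named all 10 genes and, from each other list and comparison, up to 3 called genes with the smallest adjusted p, or the 2 most abundant where none was called. For lists of other cell types the text gives mainly counts and summed levels.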

Additional observations from a re-analysis of the deposited data

How the results depend on the processing

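Between adult and perinatal libraries, all counts of calls stayed within 1.5 times under every alternative, and 117 of 120 values of the 10 genes kept their direction and call over 12 alternatives. Scaling by upper quartile moved the median of all genes from -0.06 to -0.19 and turned none of the 10. With perinatal library 1 alone, Myh11 turned to 1.02 and Myocd to 5.82. Without that library, Myocd was at -2.30 (edgeR adjusted p = 0.00140). Myocd reached the filter's minimum in 1 of 3 adult and 2 of 3 perinatal libraries, so its values rest on levels near that minimum. In the Sca1 comparison, where 220 genes were called higher and 377 lower, DESeq2 called 424 and 588, and 2 of the 10 genes lower. Leaving out 1 library gave 0 to 1 of the 10 called higher, 0 to 6 lower, and 143 to 2268 genes higher and 317 to 2567 lower, with the lone library assumed to vary like the other group. Abcc9 ran from -0.0891, without library 2 labelled Sca1-positive, to 0.504. In the knockout comparison, where 0 genes were called higher and 5 lower, DESeq2 called 472 and 527, and 2 of the 10 lower. Leaving out 1 library gave 0 to 3 of the 10 lower, 0 to 1532 genes higher and 0 to 1471 lower, the highest without knockout 1. With control 1 alone 0 genes were lower, and Tagln turned to 0.12, Acta2 to 0.25, Cnn3 to 0.0374 and Tgfbr2 to -0.0751. The causes were not tested, beyond the fewer samples of such fits.

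Same-numbered libraries of compared groups had correlated deviations of -0.019, -0.017 and 0.185 for age, 0.303 for both Sca1 pairs, and 0.187, 0.118 and 0.054 for the knockout. They share only a number, and for age and the knockout not every library correlated best with its own number, while the Sca1 value is a single one, because with 2 pairs the crossed correlation is its negative. With the replicate block, the Sca1 comparison had 4 of the 10 genes lower (Tagln, Acta2, Myl9 and Cspg4), with 577 genes higher and 792 lower, and the knockout comparison had 0 genes lower.

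Depth limits Rgs5, Abcc9 and Kcnj8 in adult libraries, where levels at or near 3 counts cannot be ranked, and Cnn1 in perinatal ones.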
